A study of Arabidopsis thaliana with 6 samples.

Results

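The WRKY genes encode a plant-specific family of transcription factors. Their levels are described here in seedlings of the nid1 knockout mutant and of wild-type Arabidopsis thaliana. The 53 loci were taken from a fixed list of WRKY identifiers among the 38150 gene identifiers in each library. All 53 were found, as locus names with a prefix, such as gene-AT4G31550 for WRKY11, gene-AT2G40750 for WRKY54 and gene-AT1G62300 for WRKY6. The RefSeq annotation of TAIR10.1 names 72 WRKY genes, so 19 others lie outside the list. The list was drawn up with measured values of these libraries in view, and no level or difference was stated as its threshold. WRKY36 lies outside it at 26.6 to 32.9 FPKM, while WRKY12 lies inside it at 0.05 to 0.32 FPKM. For that reason the differences below and their p-values are a description of these 6 libraries.

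Both genotypes were 9-day-old seedlings, labelled as whole plants, raised in long days (16 h light, 8 h dark) at 23 °C and a relative humidity of 60%. Their first medium was half-strength MS, a standard plant medium, with 20 mM nitrate. They were then moved to a medium deficient in nitrate, and were sampled after 6 h at 0.05 mM nitrate. The 3 nid1 libraries came from a line labelled as a nid1 knockout, and the 3 wild-type (WT) libraries from Col-0, the common laboratory accession. Which locus the mutation removes, which allele was used and the background of the line were not stated in the sources at hand, so the transcript of the targeted gene was not checked. The labels do not say whether replicates are separate cultures. The p-values therefore reflect only how far these samples spread, and that spread may be technical.

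Levels are in FPKM, a fragment measure divided by library and by the length of the transcript, so they can be compared between genes. The depth of each library is known only roughly. Relative to WT replicate 1 it was 0.661 to 0.871 in nid1 libraries and 0.794 and 0.912 in the other WT libraries, so nid1 libraries were on average shallower. WT replicate 2 stood apart from the other 5 libraries along the main axis of variation over all genes, which held 38.3% of the variance. Counts and medians of fold changes over gene groups and lists are therefore also given without it. Markers of the tissues were present in all 6 libraries. The photosynthesis gene RBCS1A, which encodes a small subunit of Rubisco, measured 142, 258 and 240 FPKM in nid1 replicates 1, 2 and 3, against 87.4, 100.2 and 105 FPKM in the WT replicates. PYK10, which encodes a root beta-glucosidase, measured 2752, 2900 and 2891 FPKM in the nid1 libraries, against 3860, 3993 and 3429 FPKM in the WT libraries. Of 10 root markers described further on, PYK10 alone had all nid1 values below all WT values. On average, 5 of the 10 were higher in nid1. The root gene stood above the leaf gene in each of the libraries labelled whole plant.

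WRKY factors bind short DNA elements called W-boxes, often in the promoters of defence genes and of other WRKY genes, and they activate or repress their targets. They act in responses to pathogens through salicylic acid and jasmonate, in leaf senescence, in abiotic stress and in nutrient supply, and several govern phosphate uptake and transport in Arabidopsis roots. Mitogen-activated protein (MAP) kinases phosphorylate some members, and small VQ proteins bind others. The family is divided by structure. Group I has a pair of WRKY domains, group II has 1 domain and is split into IIa to IIe, and group III has 1 domain with another kind of zinc finger. The 53 members lie on all 5 chromosomes, with 8, 16, 4, 14 and 11 of them on chromosomes 1 to 5. They comprised 10 of group I, 3 of IIa, 7 of IIb, 13 of IIc, 6 of IId, 6 of IIe and 8 of group III. These groups were assigned from general knowledge of the family. RefSeq notes name a group for 33 of the members, and 31 of those matched. The notes place WRKY23 and WRKY45 in group I, and here they stand in IIc because their coding sequences hold 1 domain motif each.

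The domain takes its name from a conserved stretch of 7 amino acids, encoded by 21 bases. The coding sequences of 10 members, which are all 10 of group I, held this stretch at 2 places, and those of the other 43 held it once, which gave 63 stretches in all. The sixth codon of the stretch, which encodes glutamine as CAA or CAG, was CAA in 33 stretches, CAG in 28 and the lysine codon AAG in 2. The stretches of the 4 members with an unadjusted limma p under 0.05 (given further on) and of WRKY70, which had the largest positive difference, are shown with both stretches of WRKY33 and with those of WRKY50 and WRKY51, which carry the lysine codon. They run 5′ to 3′ on the coding strand, from the RefSeq coding sequences of TAIR10.1, and capitals mark the sixth codon.
WRKY6: tggagaaaatatggcCAGaag
WRKY8: tggagaaagtatggcCAAaaa
WRKY11: tggaggaagtacggaCAAaaa
WRKY54: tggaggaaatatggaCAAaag
WRKY70: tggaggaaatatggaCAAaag
WRKY33, first stretch: tggagaaagtacggaCAAaaa
WRKY33, second stretch: tggagaaaatacggcCAGaaa
WRKY50: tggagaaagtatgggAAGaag
WRKY51: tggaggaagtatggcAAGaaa
WRKY54 and WRKY70 share the whole stretch letter for letter. Over the family 53 different stretches were found, so the encoding bases varied although the encoded motif is conserved.

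W-boxes were looked for as TTGACC or TTGACT on either strand. The window ran from 250 bases before to 50 bases after each annotated gene start, and overlapping matches on opposite strands cannot occur with these letters. At least 1 match lay in the windows of 20 of the 53 members, which is 37.7%, against 32.4% of 27438 nuclear protein-coding genes. At least 2 lay in the windows of 10 members (18.9%), against 7.69% of all those genes. In the 1000 bases upstream the shares with at least 2 matches were 56.6% of members and 33.1% of all genes. A match is a run of letters and not a bound site. WRKY30 held the most in the short window, with 3.

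Transcripts of nearly the whole list were detected. Of the 53 members, 47 reached 1 FPKM in every library and 0 were listed at 0 in any library. Mean levels over the 6 libraries ran from 0.21 FPKM for WRKY12 to 179 FPKM for WRKY15. At 100 FPKM or more there were 3 members, WRKY15, WRKY65 and WRKY70, and 9 members reached 50 FPKM. Another 29 lay between 10 and 50 FPKM, and 15 lay under 10 FPKM. Over the listed members only, median levels were 51.7 FPKM in IId, 43.8 in IIa, 27.0 in group III and 23.9 in IIe. They were 17.0 in group I, 15.1 in IIb and 8.15 in IIc. The 19 WRKY genes outside the list had a median of 3.08 FPKM, so medians of whole groups may differ. Summed over all members, the levels came to 1538, 1549 and 1404 FPKM in nid1 replicates 1, 2 and 3, against 1457, 1838 and 1634 FPKM in the WT replicates. The sums of the genotypes overlapped, with WT replicate 1 below 2 of the nid1 libraries. The total over all genes was also highest in WT replicate 2, at 964273 FPKM against 730062 to 804310 FPKM in the other libraries. In tissue labelled as whole plants, fewer cells of a type and less RNA per cell cannot be told apart in any of these values.

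**Figure D1:**
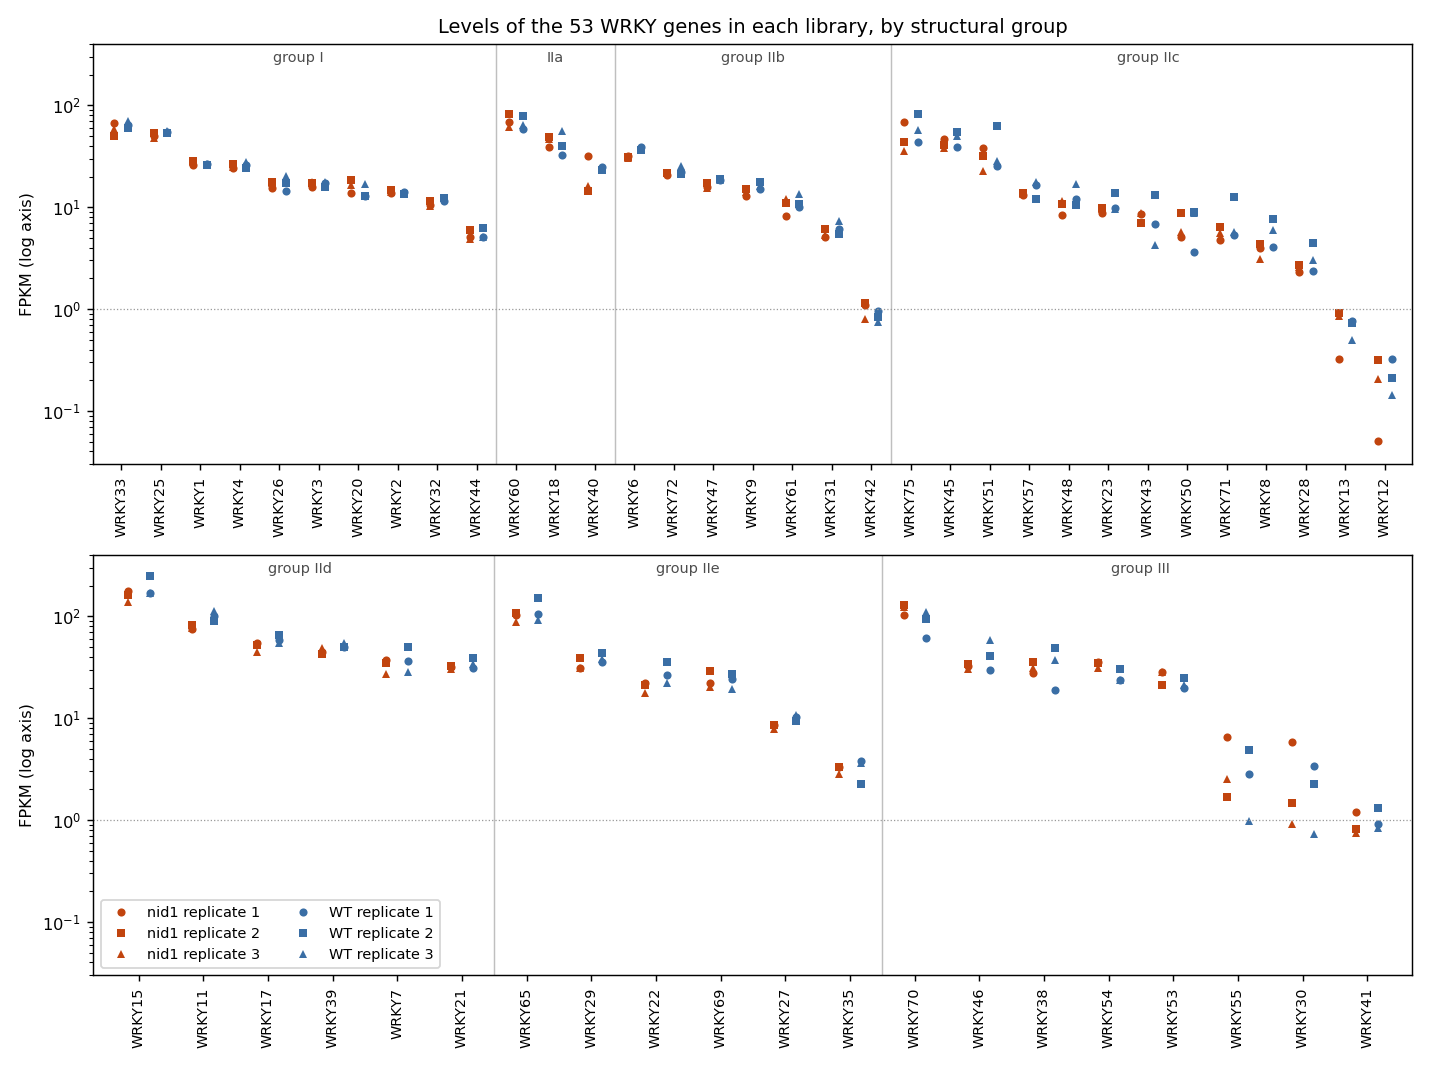
Level in FPKM (log axis) of each of the 53 WRKY genes in each of the 6 libraries, by structural group, with nid1 to the left of WT for each gene and 1 marker shape per replicate number. The dotted line is at 1 FPKM, and the points of most genes lie close together, while WRKY30, WRKY55 and WRKY12 spread the most.

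Many members varied little between libraries. In 24 of the 53 the highest library was within 1.5-fold of the lowest, and in 13 it was 2-fold or more. The steadiest were group I members. WRKY2, which acts in seed germination and in the asymmetric division of the zygote, varied 1.097-fold. The widest were WRKY30 at 8.05-fold, WRKY55 at 6.58-fold and WRKY12 at 6.38-fold. Among the 49 members tested, the median coefficient of variation was 10.5% within nid1 and 16.6% within WT, against 10.02% and 17.6% over all tested genes. Of the 53 members, 21 had their highest value in WT replicate 2 and 16 in WT replicate 3. Over all tested genes 37.3% were highest in WT replicate 2 and 19.3% in WT replicate 3.

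A gene was tested when it reached 1 FPKM in at least 3 of the 6 libraries, which 49 of the 53 members did. The other 4, WRKY12, WRKY13, WRKY41 and WRKY42, lay near or under 1 FPKM. None of the 49 reached the filter through 1 genotype alone. No member was called different between nid1 and WT at an adjusted p under 0.05 (limma with Benjamini-Hochberg adjustment over all 20533 tested genes), where 18 genes or 0.0877% were called over the whole table. At an unadjusted limma p under 0.05 there were 4 members (8.16% of those tested), beside 6.21% of all tested genes. WRKY54 was higher in nid1, and WRKY11, WRKY6 and WRKY8 were lower in it. For single directions the backgrounds were 3.65% higher and 2.56% lower. The count moved with single libraries. Leaving out nid1 replicate 1 or nid1 replicate 3 gave 1 member each, leaving out WT replicate 3 gave 2, and leaving out WT replicate 2 gave 7.

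The genotypes did not overlap, all 3 values of one lying beyond all 3 of the other, in 9 members (18.4% of those tested), beside 10.3% of all tested genes. WRKY54 was the only one of the 9 that was higher in nid1, and 5.50% of all tested genes were so. The 8 lower in nid1 were WRKY6, WRKY9 and WRKY47 of group IIb, WRKY11, WRKY17 and WRKY39 of IId, and WRKY22 and WRKY27 of IIe, beside 4.79% of all tested genes. Log2 fold changes, nid1 minus WT on the log2(FPKM + 1) scale, were below 0 in 37 of the 49 (75.5%), beside 49.95% of all tested genes, and their median was -0.16 beside 0.00. Without WT replicate 2 they were below 0 in 30 members (61.2%), beside 42.6%, and the medians were -0.08 and 0.04. The differences were small. They ran from -0.50 for WRKY8 to 0.47 for WRKY70.

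**Figure D2:**
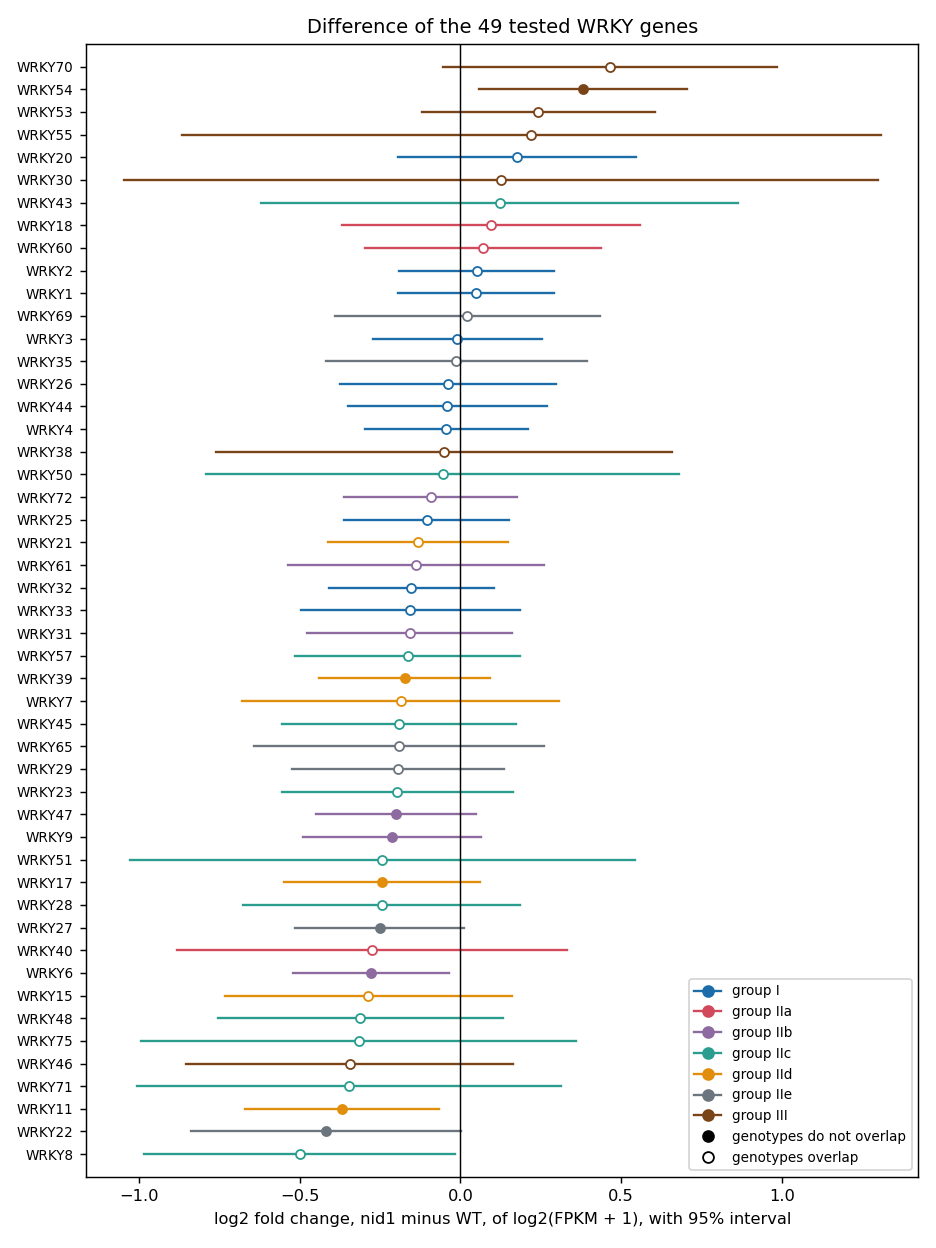
Log2 fold change of log2(FPKM + 1), nid1 minus WT, of the 49 tested WRKY genes with the 95% interval from limma, ordered by size and coloured by structural group. Filled points are the 9 genes whose genotypes did not overlap, and 37 points lie left of 0, with group III members at the top.

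Group IId holds calmodulin-binding members, and over the listed members it was the most abundant group by its median level. All 6 of its members had log2 fold changes below 0, with a median of -0.21, and without WT replicate 2 it was 5 of 6 with a median of -0.14. WRKY11 (AT4G31550), a negative regulator of basal resistance to bacteria, measured 74.4, 81.8 and 77.4 FPKM in nid1 replicates 1, 2 and 3, against 100.4, 89.9 and 113 FPKM in the WT replicates. Every nid1 library was below every WT library. The means were 77.9 ± 3.73 FPKM in nid1 and 101 ± 11.8 FPKM in WT (SD, n = 3 each), and the log2 fold change was -0.37 with a standard error (SE) of 0.13 (limma unadjusted p = 0.0231, adjusted p = 0.654). WRKY17 (AT2G24570), a close relative that acts with WRKY11, measured 54.9, 51.8 and 44.4 FPKM in the nid1 libraries, against 58.7, 65.3 and 55.3 FPKM in the WT libraries. Its genotypes were also apart, by less than 1 FPKM between nid1 replicate 1 and WT replicate 3, with a log2 fold change of -0.24 (limma unadjusted p = 0.101).

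WRKY39 (AT3G04670), which acts in heat tolerance, measured 44.6, 42.9 and 48.8 FPKM in nid1 libraries, against 49.5, 49.6 and 54.9 FPKM in WT libraries. Again no nid1 library reached a WT library, and the log2 fold change was -0.17. WRKY15 (AT2G23320), which acts in the response to salt and osmotic stress, had the highest level of the family at 178, 162 and 139 FPKM in nid1, against 171, 251 and 170.0 FPKM in WT. Its WT mean was set by WT replicate 2, and the other WT libraries lay among the nid1 values. Its log2 fold change was -0.29, and -0.10 without WT replicate 2. The promoter windows of WRKY11 and WRKY17 are shown because both genes were lower in each nid1 library. They run 5′ to 3′ on the strand of the gene, from TAIR10.1, and capitals mark W-box letters on either strand. WRKY11 itself lies on chromosome 4, minus strand, from 15289788 to 15291934, and WRKY54, described further on, on chromosome 2, minus strand, from 17000419 to 17002528.
WRKY11, chr4:15291885-15292184, minus strand: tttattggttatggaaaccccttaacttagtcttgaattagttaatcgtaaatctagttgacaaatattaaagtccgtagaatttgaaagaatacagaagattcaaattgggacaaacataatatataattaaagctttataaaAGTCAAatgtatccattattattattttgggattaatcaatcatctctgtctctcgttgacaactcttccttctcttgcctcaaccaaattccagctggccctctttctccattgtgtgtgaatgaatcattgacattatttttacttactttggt
WRKY17, chr2:10439420-10439719, minus strand: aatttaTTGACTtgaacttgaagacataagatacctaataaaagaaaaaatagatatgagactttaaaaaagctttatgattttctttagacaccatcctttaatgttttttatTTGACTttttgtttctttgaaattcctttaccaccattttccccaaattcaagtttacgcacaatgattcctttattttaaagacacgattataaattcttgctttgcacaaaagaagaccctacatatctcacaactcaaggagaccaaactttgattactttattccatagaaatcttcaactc
The WRKY11 window holds 1 match, 106 bases before the start on the other strand. The WRKY17 window holds 2, at 244 and 136 bases before the start and both as written.

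Group IIb includes regulators of phosphate transport. All 6 tested members were below 0, with a median of -0.18, and this was the same count and median without WT replicate 2. WRKY6 (AT1G62300), which represses the phosphate exporter gene PHO1 and acts in senescence, measured 31.9, 30.9 and 30.2 FPKM in nid1 replicates 1, 2 and 3, against 39.0, 36.2 and 38.3 FPKM in the WT replicates. The values of each genotype lay within a narrow band and the bands were apart. The means were 31.0 ± 0.836 FPKM in nid1 and 37.8 ± 1.47 FPKM in WT (SD, n = 3 each), with a log2 fold change of -0.28 and an SE of 0.10 (limma unadjusted p = 0.0295, adjusted p = 0.695). WRKY47 (AT4G01720) measured 15.8, 17.3 and 15.3 FPKM in nid1 libraries, against 18.5, 19.0 and 18.5 FPKM in WT libraries. WRKY9 (AT1G68150), which acts in root suberin formation, measured 12.8, 15.03 and 13.9 FPKM in nid1 libraries, against 15.03, 17.7 and 16.2 FPKM in WT libraries. In WRKY47 the bands were clearly apart, while in WRKY9 the highest nid1 and the lowest WT value were the same to 4 digits. WRKY42 (AT4G04450), which also acts on phosphate transport, lay at 0.81 to 1.14 FPKM in nid1 and 0.75 to 0.96 FPKM in WT and was not tested.

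Group IIe was below 0 in 5 of 6 members, with a median of -0.19 (4 of 6 and -0.15 without WT replicate 2). WRKY22 (AT4G01250), which acts downstream of a MAP kinase cascade in the response to bacterial flagellin, measured 21.98, 21.2 and 17.8 FPKM in nid1 replicates 1, 2 and 3, against 26.4, 35.3 and 21.99 FPKM in the WT replicates. The genotypes did not overlap, by less than 0.01 FPKM between nid1 replicate 1 and WT replicate 3. The means were 20.3 ± 2.22 FPKM in nid1 and 27.9 ± 6.77 FPKM in WT (SD, n = 3 each), with a log2 fold change of -0.42 (limma unadjusted p = 0.0508, adjusted p = 0.810). It was -0.24 without WT replicate 2. Its partner in that response, WRKY29, measured 31.3, 39.4 and 31.4 FPKM in nid1, against 35.2, 43.9 and 37.9 FPKM in WT, and there the genotypes overlapped. Exons of WRKY29 overlap those of AT4G23560 on the other strand by 251 bases, and its values are uncertain to that extent. WRKY27 (AT5G52830), which affects the course of bacterial wilt, measured 8.64, 8.48 and 7.82 FPKM in nid1, against 10.16, 9.37 and 10.7 FPKM in WT. All 3 nid1 values were lower, with a log2 fold change of -0.25 (limma unadjusted p = 0.0592). WRKY65 (AT1G29280) was the second most abundant member at 103, 108 and 87.7 FPKM in nid1, against 105, 150.0 and 92.4 FPKM in WT, and only WT replicate 2 lay outside the nid1 range.

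**Figure D3:**
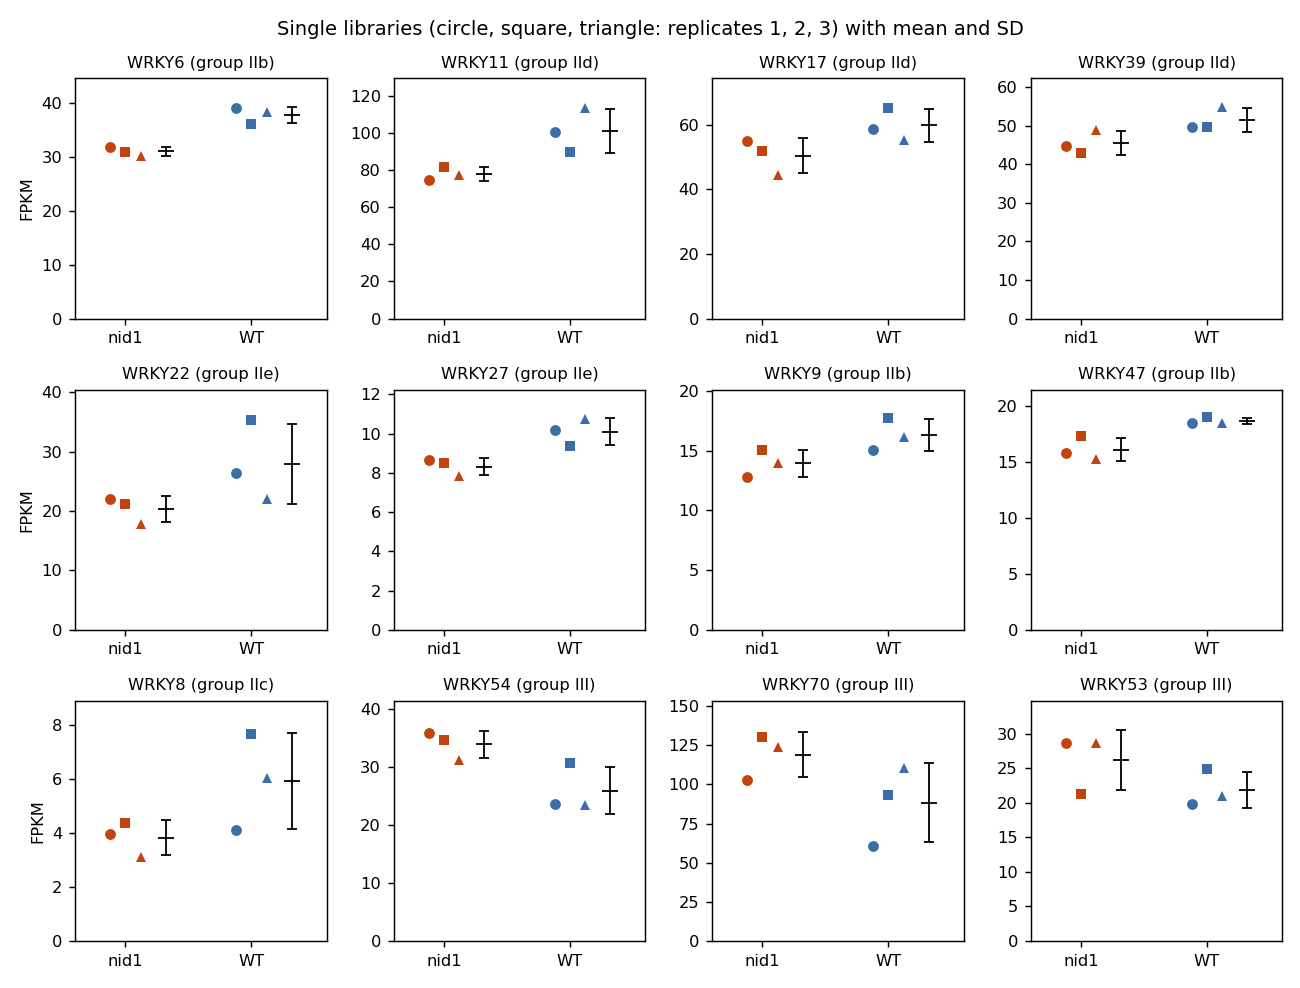
Level in FPKM (linear axes from 0) of 12 WRKY genes in single libraries, nid1 left of WT, with the mean and SD of the 3 libraries beside them. In the panels of WRKY6, WRKY11, WRKY17, WRKY39, WRKY22, WRKY27, WRKY9 and WRKY47 every nid1 value lies below every WT value, in that of WRKY54 every one lies above, and in those of WRKY8, WRKY70 and WRKY53 the genotypes overlap.

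Group III was the larger of the groups with a median above 0, and its median moved with single libraries. Of its 7 tested members 5 were above 0, with a median of 0.22, and without WT replicate 2 it was 6 of 7 with a median of 0.33. Without nid1 replicate 1 or without WT replicate 3 it was 4 of 7, with medians of 0.03 and 0.04. These counts hold for the listed members only. WRKY62, a group III gene outside the list, lay below 0 at -0.48. WRKY54 (AT2G40750), which with WRKY70 holds back leaf senescence and tunes salicylic acid signalling, measured 35.8, 34.6 and 31.2 FPKM in nid1 replicates 1, 2 and 3, against 23.6, 30.7 and 23.5 FPKM in the WT replicates. Each nid1 library was above each WT library, narrowly so between nid1 replicate 3 and WT replicate 2. The means were 33.9 ± 2.38 FPKM in nid1 and 25.9 ± 4.13 FPKM in WT (SD, n = 3 each), with a log2 fold change of 0.38 and an SE of 0.14 (limma unadjusted p = 0.0264, adjusted p = 0.681). Its promoter window on TAIR10.1 is shown because it is the only member with all nid1 values above all WT values. It runs 5′ to 3′ on the strand of the gene and is in lower case throughout, since it holds none of the W-box letters searched for.
WRKY54, chr2:17002479-17002778, minus strand: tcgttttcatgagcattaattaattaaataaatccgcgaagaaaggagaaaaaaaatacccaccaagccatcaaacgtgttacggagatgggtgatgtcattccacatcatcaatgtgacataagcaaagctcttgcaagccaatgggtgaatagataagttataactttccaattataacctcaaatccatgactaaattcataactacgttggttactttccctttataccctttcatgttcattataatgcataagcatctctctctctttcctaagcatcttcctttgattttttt
WRKY70 (AT3G56400), a node between salicylic acid and jasmonate signalling, measured 103, 130.4 and 124 FPKM in nid1, against 60.7, 93.5 and 110.4 FPKM in WT. Here nid1 replicate 1 lay below WT replicate 3, so the genotypes overlapped. The means were 119 ± 14.3 FPKM in nid1 and 88.2 ± 25.3 FPKM in WT (SD, n = 3 each), with a log2 fold change of 0.47 and an SE of 0.22 (limma unadjusted p = 0.0724, adjusted p = 0.875). The 95% interval ran from -0.05 to 0.98, and without WT replicate 1 the log2 fold change was 0.22.

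WRKY53 (AT4G23810), a positive regulator of leaf senescence, measured 28.7, 21.2 and 28.6 FPKM in nid1 libraries, against 19.8, 24.8 and 20.98 FPKM in WT libraries. The genotypes overlapped, and exons of WRKY53 share 311 bases with AT4G23800 on the other strand, so its values are uncertain to that extent. WRKY46 (AT2G46400), which acts with WRKY70 and WRKY53 in basal resistance, was lower on average in nid1, at 32.4, 34.2 and 30.6 FPKM in nid1 and 29.9, 40.7 and 58.0 FPKM in WT. Its nid1 libraries were close together while its WT libraries were not, with coefficients of variation of 5.602% in nid1 and 33.02% in WT. The log2 fold change was -0.34 (limma unadjusted p = 0.156), and leaving out WT replicate 3 gave -0.11, while leaving out WT replicate 1 gave -0.57. WRKY38 (AT5G22570), a negative regulator of basal defence, measured 27.7, 35.7 and 31.1 FPKM in nid1, against 18.9, 48.6 and 37.2 FPKM in WT, with the nid1 values inside the WT range. WRKY30 (AT5G24110), which acts in oxidative stress and senescence, measured 5.87, 1.46 and 0.92 FPKM in nid1, against 3.43, 2.27 and 0.73 FPKM in WT. WRKY55 (AT2G40740), the neighbour of WRKY54 on chromosome 2, measured 6.49, 1.67 and 2.55 FPKM in nid1, against 2.82, 4.92 and 0.99 FPKM in WT. In both genes nid1 replicate 1 was the highest and WT replicate 3 the lowest of the 6 libraries. Their log2 fold changes were 0.13 for WRKY30 and 0.22 for WRKY55, and without nid1 replicate 1 they were -0.43 and -0.21.

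Group IIc was below 0 in 10 of 11 tested members, with a median of -0.24, and this rested in large part on WT replicate 2. Without that library it was 7 of 11 with a median of -0.06. Of its 13 members 9 were highest in WT replicate 2, where the median deviation from each gene's own mean was 0.41 on the log2 scale. WRKY8 (AT5G46350), which acts in salt tolerance and in defence, measured 3.95, 4.37 and 3.10 FPKM in nid1 replicates 1, 2 and 3, against 4.09, 7.65 and 6.01 FPKM in the WT replicates. The genotypes overlapped, since WT replicate 1 lay among the nid1 values. The means were 3.81 ± 0.645 FPKM in nid1 and 5.92 ± 1.78 FPKM in WT (SD, n = 3 each), with a log2 fold change of -0.50 and an SE of 0.21 (limma unadjusted p = 0.0445, adjusted p = 0.788). Leaving out WT replicate 2 gave -0.32, and leaving out WT replicate 1 gave -0.70.

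WRKY75 and WRKY45 of the same group act in the response to phosphate supply. WRKY75 (AT5G13080), which is induced by phosphate starvation and also acts in senescence, measured 68.8, 43.8 and 35.3 FPKM in nid1, against 43.8, 83.0 and 57.3 FPKM in WT. The spread was wide within both genotypes, at 35.3% in nid1 and 32.5% in WT, and the log2 fold change was -0.32 with a 95% interval from -0.99 to 0.36. It was -0.58 when nid1 replicate 1 was left out and -0.11 when nid1 replicate 3 was, and leaving out WT replicate 1 or 2 gave -0.53 and -0.08. WRKY45 (AT3G01970), an activator of the phosphate transporter gene PHT1;1, measured 46.2, 40.8 and 38.2 FPKM in nid1, against 39.0, 55.3 and 50.1 FPKM in WT. Its genotypes overlapped through WT replicate 1. WRKY71 (AT1G29860), which acts in shoot branching, measured 4.74, 6.37 and 5.55 FPKM in nid1, against 5.31, 12.5 and 5.67 FPKM in WT. WRKY51 (AT5G64810), which with WRKY50 carries the lysine codon and represses jasmonate responses, measured 37.9, 32.0 and 22.7 FPKM in nid1, against 25.5, 63.3 and 28.6 FPKM in WT. In both genes WT replicate 2 was high and the other 2 WT libraries lay among the nid1 values. WRKY12 (AT2G44745), which acts in stem pith and in flowering, was near the floor at 0.05, 0.31 and 0.20 FPKM in nid1 and 0.32, 0.21 and 0.14 FPKM in WT.

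**Figure D4:**
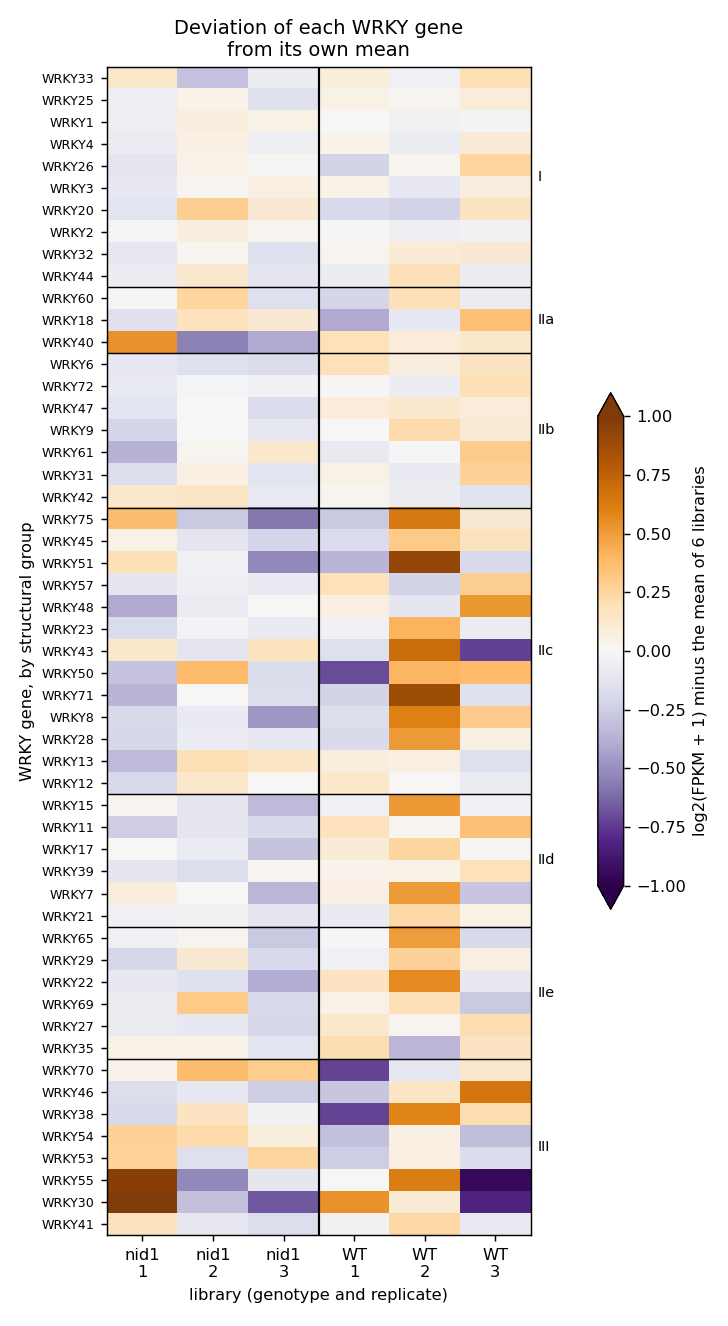
Deviation of log2(FPKM + 1) from the gene's own mean over 6 libraries, for each of the 53 WRKY genes (rows, by structural group) in each library (columns, nid1 left of WT). Orange cells are above the mean and purple cells below, with WT replicate 2 above the mean in most rows of group IIc and nid1 replicate 1 above it in WRKY30, WRKY55 and WRKY40.

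Group I had the median difference closest to 0. The genotypes lay apart in 0 of its 10 members, as in IIa and IIc, beside 10.3% of all tested genes. Of the 10, 7 were below 0, with a median of -0.04 (6 and -0.05 without WT replicate 2). WRKY33 (AT2G38470), a MAP kinase substrate needed for camalexin synthesis and for resistance to necrotrophic fungi, measured 67.5, 49.4 and 58.3 FPKM in nid1 replicates 1, 2 and 3, against 64.7, 59.4 and 70.3 FPKM in the WT replicates. Of the WT values, 2 of 3 lay inside the nid1 range. The log2 fold change was -0.16 with a 95% interval from -0.50 to 0.18. WRKY25 (AT2G30250), which acts in heat tolerance, measured 50.4, 54.05 and 47.3 FPKM in nid1, against 54.3, 53.2 and 55.7 FPKM in WT. WRKY1 (AT2G04880), reported in Arabidopsis to regulate nitrogen and light responses, measured 25.8, 28.4 and 27.9 FPKM in nid1, against 26.8, 26.2 and 26.3 FPKM in WT. In both genes the genotypes overlapped, and the 95% interval of the log2 fold change of WRKY1 ran from -0.20 to 0.29. WRKY1 shares 166 exonic bases with AT2G04890 on the other strand. The largest positive value of the group was that of WRKY20, at 13.7, 18.5 and 16.3 FPKM in nid1 and 12.96, 12.7 and 16.9 FPKM in WT, with a log2 fold change of 0.18 and overlapping genotypes.

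Group IIa consists of 3 interacting members that act in basal defence and abscisic acid signalling. WRKY60 (AT2G25000) measured 68.8, 81.3 and 61.4 FPKM in nid1, against 58.7, 78.0 and 64.8 FPKM in WT. WRKY18 (AT4G31800) measured 39.0, 48.9 and 46.7 FPKM in nid1, against 32.5, 40.2 and 55.7 FPKM in WT. Both overlapped between the genotypes. WRKY40 (AT1G80840) measured 31.6, 14.5 and 16.05 FPKM in nid1, against 24.6, 22.99 and 23.8 FPKM in WT. Here nid1 replicate 1 was the highest of the 6 libraries and the other 2 nid1 libraries were the lowest, so the spread was 45.7% in nid1 and 3.40% in WT. The log2 fold change was -0.27 (limma unadjusted p = 0.326) and was -0.61 without nid1 replicate 1. Leaving out nid1 replicate 2 or 3 in its place gave -0.07 and -0.14. WRKY40 was also the only member with exonic stretches of 50 bases found elsewhere in the genome, at AT3G32090, which was listed at 0 in all 6 libraries.

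Genes that act before or together with WRKY factors were counted in 3 lists. Of 10 MAP kinase cascade genes 4 were below 0, with a median of 0.05 (2 and 0.08 without WT replicate 2), and 1 had an unadjusted limma p under 0.05. It was MKK1, a kinase above MPK4, at 22.2, 24.3 and 21.9 FPKM in nid1 and 14.0, 18.3 and 19.9 FPKM in WT, with a log2 fold change of 0.38 (limma unadjusted p = 0.0326, adjusted p = 0.721). Of 8 genes of pattern perception, among them the flagellin receptor gene FLS2, 6 were below 0 with a median of -0.08 (6 and -0.10 without WT replicate 2), and 0 had an unadjusted limma p under 0.05. Of 10 genes for VQ proteins, several of which bind WRKY factors, 8 were below 0 with a median of -0.15 (5 and -0.05 without WT replicate 2). VQ29, which acts in seedling de-etiolation, had the only unadjusted limma p under 0.05 among them. It measured 2.71, 0.61 and 0.53 FPKM in nid1, against 4.40, 15.1 and 6.89 FPKM in WT. All nid1 values were below all WT values, with a log2 fold change of -2.08 (limma unadjusted p = 0.00202, adjusted p = 0.264).

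Genes reported as WRKY targets were split. Of 16 tested of 18, 7 were below 0 and 9 above, with a median of 0.02 (6, 10 and 0.06 without WT replicate 2), and 1 had an unadjusted limma p under 0.05. It was SAG12, a senescence-associated protease gene, at 16.7, 27.2 and 42.9 FPKM in nid1 and 1.33, 12.1 and 2.07 FPKM in WT. Every nid1 library was above every WT library, with a log2 fold change of 2.62 (limma unadjusted p = 0.00313, adjusted p = 0.309). PR1, a marker of salicylic acid responses, measured 33.6, 41.7 and 37.2 FPKM in nid1, against 10.5, 38.4 and 24.0 FPKM in WT, and overlapped through WT replicate 2. PAD3, the last step of camalexin synthesis and a target of WRKY33, measured 66.5, 56.6 and 37.0 FPKM in nid1, against 33.6, 76.8 and 50.9 FPKM in WT. PHO1, the target of WRKY6 and WRKY42, measured 53.4, 42.4 and 45.3 FPKM in nid1, against 58.6, 42.8 and 48.99 FPKM in WT. In both genes the genotypes overlapped. None of the genes of these 4 lists was called over all genes. In each list 0 or 1 gene had an unadjusted limma p under 0.05, beside 6.21% of all tested genes.

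**Figure D5:**
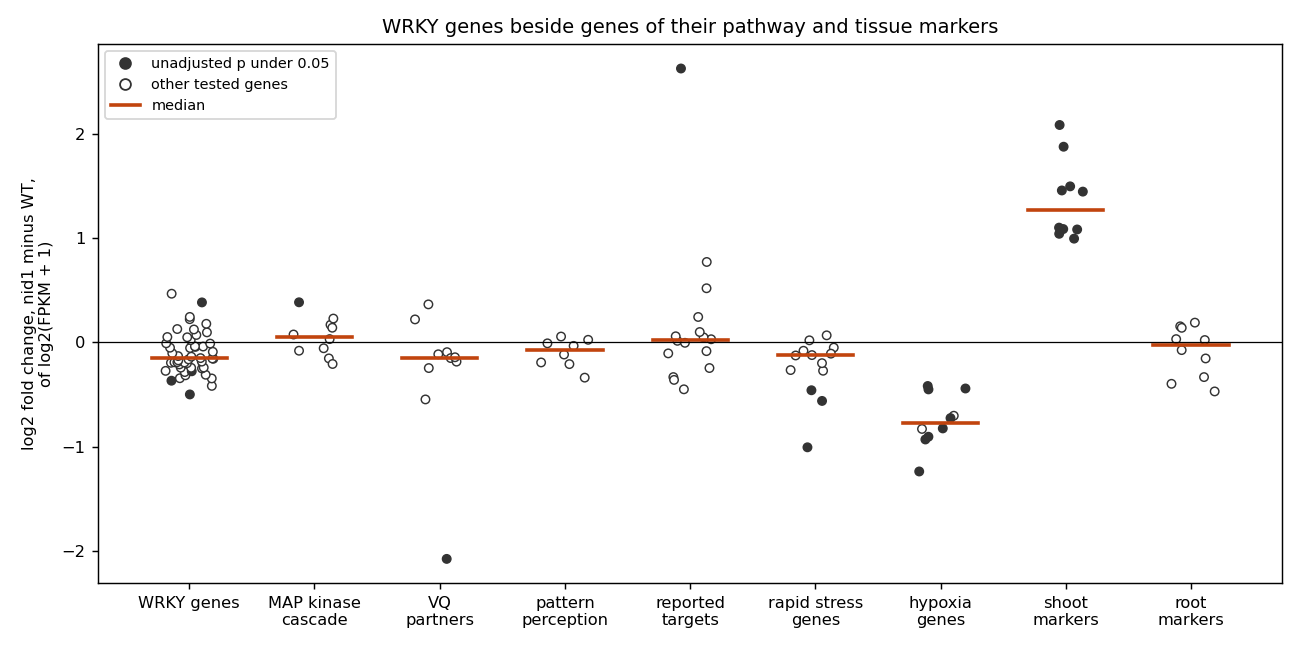
Log2 fold change of log2(FPKM + 1), nid1 minus WT, of the 49 tested WRKY genes and of the tested genes of 8 lists, 1 point per gene with the median as a bar. Filled points have an unadjusted limma p under 0.05, and the shoot markers all lie above 0.9 while the hypoxia genes all lie below 0.

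Tissue and stress markers differed between the same libraries, and their part in the WRKY values was not tested. All 10 shoot photosynthesis markers were higher in nid1 with no overlap, beside 5.50% of all tested genes. Their median log2 fold change was 1.27. All 10 had an unadjusted limma p under 0.05, beside 6.21% of all tested genes, and 0 of 10 were called. The summed level of these markers was 594 to 1067 FPKM in nid1 and 318 to 421 FPKM in WT. Of 10 root markers 5 were below 0, with a median of -0.03, and without WT replicate 2 it was 4 with a median of 0.05. Their summed level was 3440 to 3610 FPKM in nid1 and 4199 to 4739 FPKM in WT, of which PYK10 made up the largest share. The other 9 summed to 667 to 719.6 FPKM in nid1 and 676 to 879.6 FPKM in WT, and these ranges overlapped. No marker of either list was listed at 0. Of 10 hypoxia genes all were below 0, with a median of -0.78, and -0.45 without WT replicate 2. Of them 8 had an unadjusted limma p under 0.05 and 0 were called. Their summed level was 2185, 1878 and 1311 FPKM in nid1 replicates 1, 2 and 3, against 2173, 4312 and 3081 FPKM in the WT replicates. Of 13 tested genes of a rapid response to touch and wounding, 11 were below 0, with a median of -0.13 (8 and -0.02 without WT replicate 2). Of these 13, 3 had an unadjusted limma p under 0.05 and 0 were called. They were CML38, a calmodulin-like gene also induced by hypoxia, ZAT12, a zinc-finger gene of oxidative stress, and TCH4. Their log2 fold changes were -1.01 for CML38 (limma unadjusted p = 0.00754, adjusted p = 0.431), -0.56 for ZAT12 (0.0257 and 0.671) and -0.46 for TCH4 (0.0482 and 0.796). CML38 measured 88.7, 73.2 and 58.2 FPKM in nid1 and 99.9, 216 and 145 FPKM in WT, and ZAT12 measured 20.6, 17.7 and 19.2 FPKM in nid1 and 22.3, 40.01 and 26.5 FPKM in WT. The hypoxia sum and 8 of the 14 rapid-response genes were highest in WT replicate 2. In that library 21 of the 53 WRKY members were highest, beside 37.3% of all tested genes.

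Grouped by W-box matches in the short window, the tested members gave these counts. Of the 31 with none, 23 were below 0, with a median of -0.16 (16 and -0.04 without WT replicate 2). Of the 9 with 1 match 7 were below 0, with a median of -0.11 (7 and -0.08 without WT replicate 2). Of the 9 with at least 2, 7 were below 0, with a median of -0.19 (again 7, and -0.11, without WT replicate 2).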

How the data were processed

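RNA sequencing profiled 6 libraries, 3 nid1 and 3 WT, grouped by sample title. The deposited values are FPKM, 1 per gene and library. The unit comes from the identifier column, named as Cuffdiff names it per the file headers, and from the submitters' processing notes. Those notes list bcl2fastq 2.20, Bowtie, TopHat2 2.0.13 and Cuffdiff 2.2.1 without roles. The design text of the series also names a route through BWA and ANOVA, which those notes do not list. The sources used here do not give aligner settings, a strand setting or a genome build. Of 38150 identifiers, 37932 matched RefSeq locus tags of TAIR10.1, from which sequences, coordinates and exon overlaps were taken. The kit marks strand, but how the authors' FPKM divided overlapping genes is unknown, so exons of 11 members that overlap another gene are uncertain. No fragment counts were used here, and relative depth was read approximately from the steps between low values, so no counting interval is given.

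The test was limma 3.58.1 (R 4.3.3), two-sided, on log2(FPKM + 1), with a mean-variance trend and a single term for genotype. It ran on the 20533 genes that reached 1 FPKM in 3 or more libraries. Benjamini-Hochberg adjustment ran over all of them, with calls at an adjusted p under 0.05. The log2(FPKM + 1) scale understates the change of low genes. An exact 0 in such files can be a failed estimate. The test was also run on simulated data. That check had to recover only differences far larger than those of the WRKY members. It does not show how the test performs at their size. Named members were those with an unadjusted p under 0.05, the 6 largest differences in each direction, the 5 highest levels and 16 members named whatever their result. Other members named, and genes of other lists without an unadjusted p under 0.05, were chosen after their values were seen. From each other list up to 4 genes with an unadjusted p under 0.05 could be named. Members, structural groups and lists were chosen with earlier results of these data known. As alternatives, a replicate block was added, each library was left out in turn, and other settings were used: pseudocounts of 0.1 and 0.5, 2 other filters, median-ratio rescaling and no variance trend.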

Additional observations from a re-analysis of the deposited data

How the results depend on the processing

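No WRKY member was called in any of the 13 alternatives (limma), and the smallest adjusted p of a named member was 0.124. The replicate block left 0 members called, with 70 genes called over the whole table against 18 without it, and 6 members with an unadjusted limma p under 0.05 against 4. Deviations of same-numbered nid1 and WT libraries correlated at -0.01, 0.13 and 0.30 across genes, and not every library correlated best with its own number. With so few libraries, these correlations cannot decide whether same-numbered samples were handled together. The labels give only a number. When 1 library was left out, the count over the whole table was 8 to 35, the count of members with an unadjusted limma p under 0.05 was 1 to 7, and the median log2 fold change was -0.20 to -0.08. Of 286 values for named members, 277 kept their direction and their side of the threshold and 9 turned round, in 6 members. The replicate block, the 2 other filters and the fit without a variance trend cannot change a log2 fold change. Direction could not turn in those, so their values show only the side of the threshold. When 1 library was left out, the log2 fold change ran from -0.43 to 0.49 for WRKY30, from -0.21 to 0.59 for WRKY55, from -0.037 to 0.18 for WRKY60, from -0.082 to 0.30 for WRKY18, from -0.34 to 0.0087 for WRKY65 and from -0.54 to 0.0069 for WRKY71. WRKY30 and WRKY55 turned round without nid1 replicate 1 and without WT replicate 3, at -0.25 and -0.20 in the second case. WRKY60 did so without nid1 replicate 2 and without WT replicate 1 (-0.02), WRKY18 without WT replicate 1, and WRKY65 and WRKY71 without WT replicate 2. Each of these turns appeared in a fit with 1 library left out, and in no member did every such fit turn. With 3 libraries a genotype and an unknown depth, the intervals of the report set the limit of what could be seen.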

Other observations

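The 53 genes described were listed with measured values in view, and the 19 other WRKY genes that RefSeq names lay lower. Their mean levels ran from 0 to 29.0 FPKM with a median of 3.08 FPKM. WRKY64 and WRKY68 were listed at 0 in all 6 libraries. Of the 13 tested, 8 had log2 fold changes below 0, with a median of -0.11 (9 and -0.10 without WT replicate 2), and 0 had an unadjusted limma p under 0.05. In 0 of them did the genotypes lie apart. Their lowest log2 fold change was -0.54, that of ABO3, and their highest was 0.20, that of WRKY19. Over all tested genes 6.21% had an unadjusted limma p under 0.05, and in 10.3% the genotypes lay apart. WRKY36 was the most abundant at 27.8, 28.4 and 26.6 FPKM in nid1 replicates 1, 2 and 3, against 32.9, 26.9 and 31.5 FPKM in the WT replicates. WRKY62, a group III partner of WRKY38 in basal defence, measured 11.3, 12.05 and 7.84 FPKM in nid1, against 8.00, 22.5 and 17.2 FPKM in WT. Its log2 fold change was -0.48 (limma unadjusted p = 0.193). RRS1, an immune receptor that carries a WRKY domain, measured 4.37, 4.93 and 5.39 FPKM in nid1, against 4.58, 2.80 and 5.38 FPKM in WT. In all 3 genes the genotypes overlapped.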
